A study of Mus musculus with 42 samples.

Results

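The genes described here are 9 genes that mark the pluripotent epiblast of the early mouse embryo: Pou5f1, Nanog, Sox2, Utf1, L1td1, Lin28a, Slc7a3, Otx2 and Cdh1. They were taken by symbol, and all 9 were present among the 12988 genes of the expression data. In the methylation data, 100 bp tiles within each gene or 2 kb of it were taken, which gave 72 of 141251 tiles in 8 of the genes. Nanog had no tile. The study asked whether exposure of fathers to DEHP, a phthalate plasticizer, before mating is followed by changes in their sperm and embryos. C57BL/6J males received vehicle, a low dose of 2.5 mg/kg/day or a high dose of 25 mg/kg/day for 67 days and were mated with unexposed females. All embryos were labelled wild type, male, C57BL/6 * DBA/2J and embryonic day 7.5, and sperm came from males of 14 weeks, so that the groups differed in the dose given to the father. RNA was sequenced in 6 libraries (2 each of control, low and high), and DNA methylation in 9 libraries (3 each) by RRBS, a bisulfite method limited to a CpG-rich fraction of the genome.

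The labels list embryonic and extra-embryonic tissue for RNA, and these tissues and sperm for RRBS. The columns of the 2 data sets name only the treatment and a number, so the tissue of each library is not known here. Nothing in the labels says whether the libraries of a group came from separate fathers or litters, so p-values measure the spread between these libraries.

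Pluripotency is held by a small network of transcription factors in which Pou5f1 (Oct4) and Sox2 bind neighbouring DNA sites and act together with Nanog. As the epiblast prepares for gastrulation it enters a primed state, in which Otx2 works with Pou5f1 at new sites, and the network is then switched off as germ layers form. Lin28a, an RNA-binding protein, blocks maturation of let-7 microRNAs, and Cdh1 (E-cadherin) holds the epiblast together as an epithelium until cells pass through the primitive streak. Sox2 is kept in the neural plate when Pou5f1 and Nanog are lost.

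The promoters of 4 genes are shown because RRBS reads a CpG-rich fraction of the genome and they differ in CpG content. The Nanog promoter also holds the joint Sox2 and Pou5f1 site for which it is known. Each is the RefSeq (GRCm38.p6) sequence from 250 bases before to 50 bases after the gene start, with CpG dinucleotides in capitals. The Sox2 promoter lies at chr3:34649745-34650044 on the plus strand, that of Utf1 at chr7:139943606-139943905 (plus), that of Pou5f1 at chr17:35505782-35506081 (plus) and that of Nanog at chr6:122707239-122707538 (plus).
Sox2: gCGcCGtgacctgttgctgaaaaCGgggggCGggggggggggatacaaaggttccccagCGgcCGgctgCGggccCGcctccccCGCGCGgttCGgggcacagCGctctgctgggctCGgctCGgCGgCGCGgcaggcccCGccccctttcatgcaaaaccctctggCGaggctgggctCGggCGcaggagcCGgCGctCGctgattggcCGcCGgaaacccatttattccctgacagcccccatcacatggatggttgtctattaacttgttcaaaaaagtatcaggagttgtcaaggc
Utf1: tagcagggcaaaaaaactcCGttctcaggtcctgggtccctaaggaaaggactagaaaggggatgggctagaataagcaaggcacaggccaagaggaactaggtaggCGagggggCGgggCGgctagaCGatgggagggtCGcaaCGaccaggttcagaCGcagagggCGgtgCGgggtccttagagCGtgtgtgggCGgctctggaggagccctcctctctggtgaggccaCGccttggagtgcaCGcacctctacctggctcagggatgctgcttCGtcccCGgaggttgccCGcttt
Pou5f1: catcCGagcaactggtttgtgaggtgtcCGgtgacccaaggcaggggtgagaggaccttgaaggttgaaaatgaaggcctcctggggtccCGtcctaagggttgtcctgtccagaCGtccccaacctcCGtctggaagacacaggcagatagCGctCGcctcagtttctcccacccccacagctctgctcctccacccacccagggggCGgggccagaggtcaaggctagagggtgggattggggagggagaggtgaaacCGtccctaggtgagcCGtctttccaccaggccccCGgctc
Nanog: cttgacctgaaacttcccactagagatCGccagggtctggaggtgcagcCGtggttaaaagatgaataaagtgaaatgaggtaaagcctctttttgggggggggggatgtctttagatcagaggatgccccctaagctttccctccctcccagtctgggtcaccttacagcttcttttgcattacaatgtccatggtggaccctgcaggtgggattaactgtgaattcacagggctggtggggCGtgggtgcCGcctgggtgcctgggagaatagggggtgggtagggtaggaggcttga
Nanog Sox2 and Pou5f1 site: cagcttctTTTGCATTACAATGtccatggt
The last line is the stretch at chr6:122707406-122707435 (plus strand), in which capitals mark the joint site.

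Sox2 had 27 CpGs in its 300 bases, Utf1 had 17, Pou5f1 had 11 and Nanog had 4, against a median of 7 over 32851 RefSeq promoters. CCGG, the site of MspI, the enzyme commonly used for RRBS, occurred 3 times in the Sox2 promoter, 2 times in that of Pou5f1 and 1 time in that of Utf1. It occurred 1 time in that of Lin28a and 0 times in those of Nanog, L1td1 and Otx2, and was present in 52.8% of all promoters. Nanog had no tile, whereas L1td1 had 3 and Otx2 had 15. L1td1 had 14 CpGs, Lin28a had 10 and Otx2 had 6. RefSeq lists 4 windows for Otx2 and 2 each for Pou5f1 and Nanog, of which 1 was used. The RefSeq start of Otx2 lies 6175 bp inside the span that the expression data give. RefSeq promoter sequences were matched for 7 of the 9 genes, all but Slc7a3 and Cdh1.

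The joint site was searched on both strands as the Sox motif CATTGT, any 1 base and the octamer motif ATGCAAA, and occurred in 2 of 32851 promoters (0.00609%), of which Nanog was one. Both motifs were also searched alone, and these matches in Nanog overlap the joint site. The octamer motif alone occurred in 4.63% of all promoters and, among the 7 promoters, in those of Nanog and Sox2. The Sox motif alone occurred in 12.6% of all promoters and, among the 7, in those of Nanog and Lin28a. A match describes letters only.

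Expression is given in CPM, read counts that the authors scaled for library size, so levels were compared between libraries and not between genes. Column totals lay between 982921 and 1017434 CPM and were thus close but not equal. The number of reads behind them is unknown. All 20 visceral endoderm markers, all 19 primed epiblast markers and 14 of 21 trophoblast markers were measured in the same libraries, and no measured marker was at 0 in any of them. In such bulk samples fewer cells of a type and less RNA per cell cannot be told apart.

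**Figure D1:**
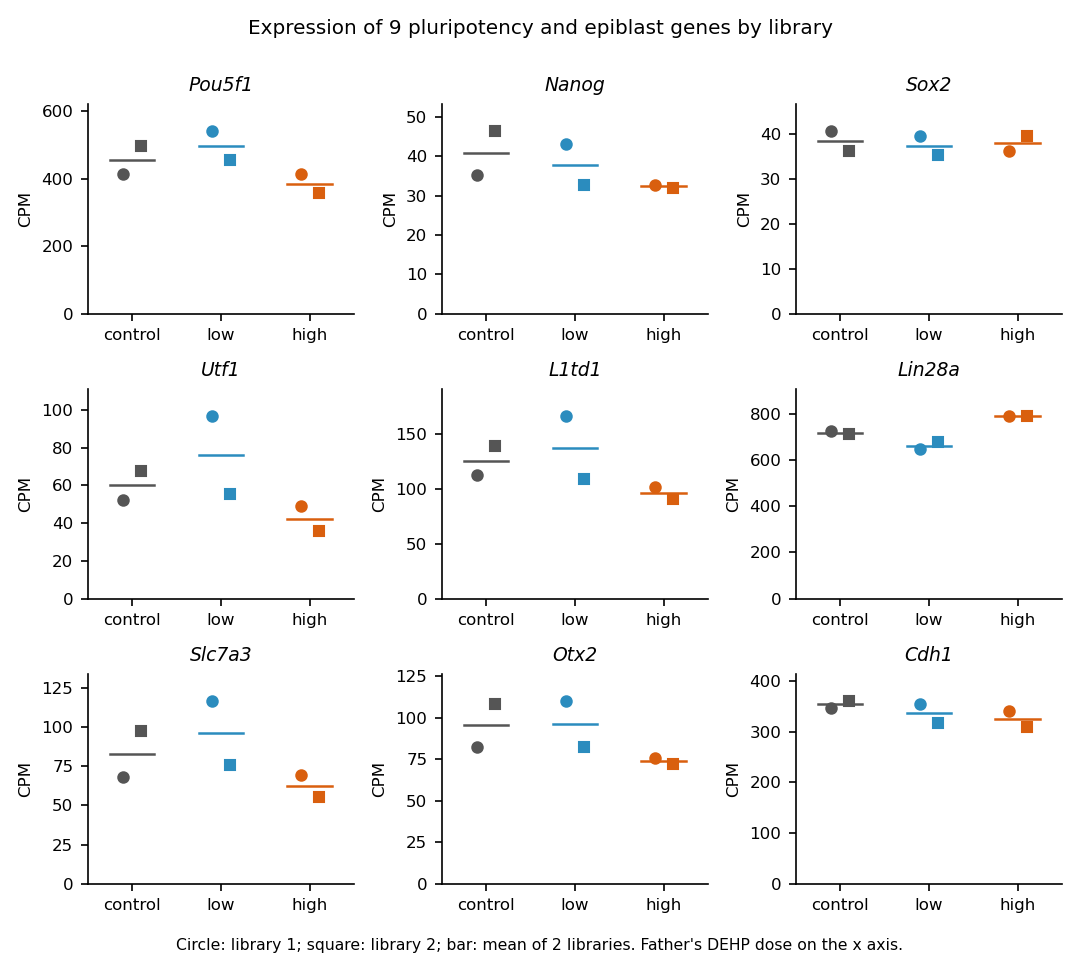
Expression of the 9 genes in CPM (y axes, from 0) in the 6 RNA libraries, by the dose given to the father (x axes). Circles are library 1 and squares library 2 of a group, and bars are the mean of both. Lin28a has both high-dose libraries above all others, and Utf1, L1td1 and Slc7a3 have a wide gap between the low-dose libraries.

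Among the core factors, Pou5f1 (ENSMUSG00000024406, chr17:35506018-35510772) was highest in a low-dose library and lowest in a high-dose library. It measured 415.03 and 498 CPM in the control libraries, 541 and 455 CPM in the low-dose libraries, and 414.8 and 357 CPM in the high-dose libraries. Both high-dose libraries lay below both low-dose libraries, and they lay below both control libraries by a margin of well under 1 CPM. The log2 difference of high against low was -0.37 (SE 0.12, 95% interval -0.65 to -0.08), with an unadjusted p of 0.018 and an adjusted p of 0.459 by limma. Against control it was -0.24 (SE 0.12, limma adjusted p 0.866) for the high dose and 0.13 (SE 0.12, limma adjusted p 0.940) for the low dose.

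Nanog (ENSMUSG00000012396, chr6:122707489-122714633), a homeobox factor that stabilises pluripotency, measured 35.2 and 46.5 CPM in the control libraries, 43.1 and 32.6 CPM in the low-dose libraries, and 32.8 and 32.1 CPM in the high-dose libraries. The high-dose libraries lay below both controls, and low 2 stood between the high-dose libraries. The log2 difference of high against control was -0.31 (SE 0.16, 95% interval -0.67 to 0.05, limma adjusted p 0.866). High against low gave -0.20 (SE 0.16, limma adjusted p 0.963), and low against control gave -0.11 (SE 0.16, limma adjusted p 0.962).

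Sox2 (ENSMUSG00000074637, chr3:34650405-34652461) varied least of the 9. It measured 40.6 and 36.2 CPM in the control libraries, 39.4 and 35.3 CPM in the low-dose libraries, and 36.3 and 39.5 CPM in the high-dose libraries, and all groups overlapped. The log2 difference was -0.02 for high against control (95% interval -0.22 to 0.18), 0.02 for high against low (-0.18 to 0.22) and -0.04 for low against control (-0.24 to 0.17).

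Utf1, L1td1 and Slc7a3 are genes of pluripotent cells: Utf1 encodes a chromatin-associated protein, L1td1 an RNA-binding protein derived from a LINE-1 element, and Slc7a3 a transporter of cationic amino acids. Utf1 (ENSMUSG00000047751, chr7:139943789-139945112) measured 52.4 and 67.8 CPM in the control libraries, 96.8 and 55.6 CPM in the low-dose libraries, and 48.9 and 35.9 CPM in the high-dose libraries. The high-dose libraries lay below all 4 others, and low 1 lay far above low 2. The log2 difference of high against low was -0.79 (SE 0.26, 95% interval -1.40 to -0.19), with an unadjusted p of 0.0168 and an adjusted p of 0.454 by limma. High against control gave -0.50 (SE 0.26, limma adjusted p 0.866).

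L1td1 (ENSMUSG00000087166, chr4:98726734-98738480) measured 112 and 139 CPM in the control libraries, 166 and 109 CPM in the low-dose libraries, and 101.5 and 90.3 CPM in the high-dose libraries. The order of libraries was close to that of Utf1, with both high-dose libraries lowest and low 1 highest. High against low gave a log2 difference of -0.49 (SE 0.19, 95% interval -0.93 to -0.04, limma adjusted p 0.566), and high against control gave -0.38 (SE 0.19, limma adjusted p 0.866).

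Slc7a3 (ENSMUSG00000031297, chrX:101079210-101086020) measured 68.0 and 97.4 CPM in the control libraries, 117 and 75.5 CPM in the low-dose libraries, and 69.6 and 55.3 CPM in the high-dose libraries. Both high-dose libraries lay below both low-dose libraries, whereas high 1 lay above control 1. High against low gave a log2 difference of -0.59 (SE 0.23, 95% interval -1.13 to -0.05, limma adjusted p 0.572), and high against control gave -0.39 (SE 0.23, limma adjusted p 0.866).

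Otx2 (ENSMUSG00000021848, chr14:48657677-48673819), which marks the primed epiblast and later the anterior head region, measured 82.1 and 109 CPM in the control libraries, 110.0 and 82.4 CPM in the low-dose libraries, and 75.6 and 72.0 CPM in the high-dose libraries. The high-dose libraries were the lowest 2 of the 6. The log2 difference was -0.35 for high against control (SE 0.16, 95% interval -0.72 to 0.02, limma adjusted p 0.866) and -0.36 for high against low (SE 0.16, limma adjusted p 0.652). Low against control gave 0.01 (SE 0.16, limma adjusted p 0.995).

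Lin28a (ENSMUSG00000050966, chr4:134003330-134018841) had the opposite direction to Pou5f1 in each comparison. It measured 725 and 713 CPM in the control libraries, 647 and 679 CPM in the low-dose libraries, and 791 and 789.6 CPM in the high-dose libraries, so that no 2 groups overlapped. High against low gave a log2 difference of 0.25 (SE 0.06, 95% interval 0.12 to 0.39), with an unadjusted p of 0.00294 and an adjusted p of 0.315 by limma. High against control gave 0.14 (SE 0.06, limma adjusted p 0.866), and low against control gave -0.12 (SE 0.06, limma adjusted p 0.928).

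Cdh1 (ENSMUSG00000000303, chr8:106603351-106670246) measured 347 and 360.5 CPM in the control libraries, 354 and 318 CPM in the low-dose libraries, and 340.1 and 309 CPM in the high-dose libraries. The high-dose libraries lay below both controls but overlapped the low-dose libraries. High against control gave a log2 difference of -0.13 (SE 0.08, 95% interval -0.30 to 0.05, limma adjusted p 0.866), and high against low gave -0.05 (SE 0.08, limma adjusted p 0.9998).

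None of the 9 genes was called at an adjusted p under 0.05 in any comparison. The background over 12987 genes tested by limma was 0.0077% called for high against control and 0% for each of the others. For high against low, 5 of the 9 had an unadjusted p under 0.05, of which Pou5f1, Utf1, L1td1 and Slc7a3 were lower and Lin28a was higher, against a background of 7.91% of genes (2.22% lower and 5.69% higher). For high against control none did, against 5.29% of genes (1.64% lower and 3.65% higher). That count was 5 without control 1 or without low 2, and 4 without low 1 or with only the groups compared in the fit. For low against control none did, against 4.87% of genes (2.97% lower and 1.9% higher). These 2 comparisons share the control libraries, and both comparisons of the high dose share the high-dose libraries.

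For high against control, the libraries of 7 of the 9 genes did not overlap, with 6 lower (Pou5f1, Nanog, Utf1, L1td1, Otx2 and Cdh1) and Lin28a higher. The background was 35.6% of genes, with 12.1% lower and 23.5% higher. For high against low, 6 of the 9 did not overlap, with 5 lower (Pou5f1, Utf1, L1td1, Slc7a3 and Otx2) and Lin28a higher, against 33.6% of genes (11.8% lower and 21.8% higher). For low against control only Lin28a did not overlap, being lower, against 35.2% of genes (17.2% lower and 18% higher).

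**Figure D2:**
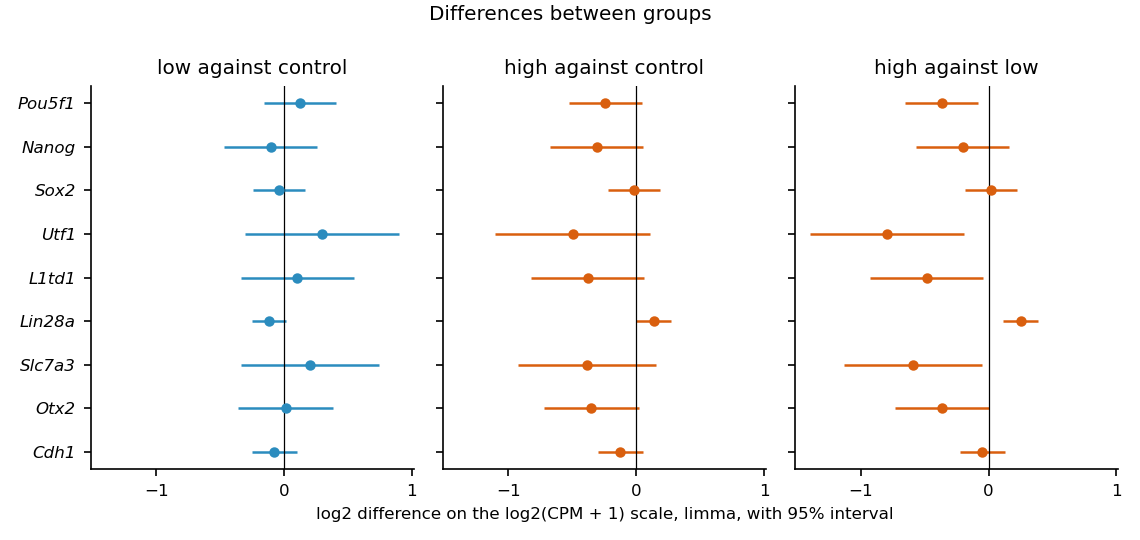
Log2 differences of the 9 genes (points) with 95% intervals (bars) from limma on log2(CPM + 1), for low against control, high against control and high against low. Intervals of Pou5f1, Utf1, L1td1 and Slc7a3 lie below 0 and that of Lin28a above 0 for high against low, before adjustment over all genes, and all intervals for low against control cross 0.

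The median log2 difference of the 9 genes was -0.31 for high against control, -0.36 for high against low and 0.01 for low against control. Over all genes tested the medians were 0.02, 0.01 and 0.00. A positive difference was found for 58.6% of genes for high against control and 57.5% for high against low. Of the 9, 1 was positive and 8 negative for high against control, and 2 were positive and 7 negative for high against low. In high against control the direction of Pou5f1, Nanog, Utf1, L1td1, Slc7a3, Otx2, Cdh1 and Lin28a was the same in all 15 alternative settings, and that of Sox2 was not. Lin28a alone had the same direction in all 15 for low against control. Leaving out a library cannot reverse a difference between groups that do not overlap, and several other settings leave the difference itself unchanged. The same direction in all 15 is therefore weak evidence of stability. The sizes for high against control depended on single libraries. Without control 2, the log2 difference was -0.13 for Slc7a3, -0.11 for Nanog, -0.15 for Otx2, -0.11 for Pou5f1, -0.23 for L1td1 and -0.32 for Utf1. Without high 2, it was -0.13 for Pou5f1, -0.22 for Slc7a3, -0.28 for Utf1 and -0.06 for Cdh1.

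The spread within groups was wide for several of these genes. The ratio of low 1 to low 2 was 1.73 for Utf1, 1.54 for Slc7a3 and 1.52 for L1td1, each a wider gap than that of 97.9% or more of genes. The ratio of control 1 to control 2 was 0.701 for Slc7a3. Over the 6 libraries, the log2 range of Utf1 was wider than that of 98.9% of genes, and that of Sox2 was wider than that of 39.2% of genes.

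High against low rested on which low-dose library was used. Without low 1, 1 of the 9 genes had an unadjusted p under 0.05 by limma, and the log2 difference of Utf1 was -0.40 (adjusted p 0.99996). Without low 2, 7 of the 9 did, and Utf1 (-1.19, limma adjusted p 0.0249) and L1td1 (-0.79, limma adjusted p 0.0259) were called, among 291 calls over all genes. Lin28a was 0.22 without low 1 and 0.29 without low 2. In each of these fits the lone low-dose library is assumed to vary like the other groups.

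**Figure D3:**
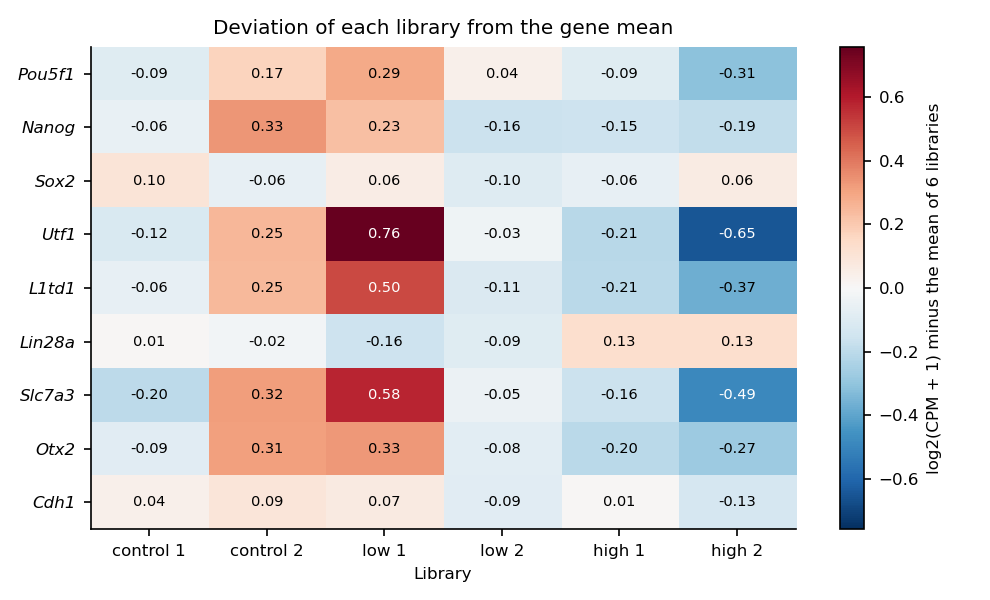
Deviation of each RNA library (columns) from the mean of all 6 on the log2(CPM + 1) scale, for the 9 genes (rows), with red above and blue below the mean. Low 1 and control 2 are above the mean for Pou5f1, Nanog, Utf1, L1td1, Slc7a3, Otx2 and Cdh1, high 2 is below it for these 7, and Lin28a is above it in both high-dose and below it in both low-dose libraries.

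The same libraries stood apart for several of the genes at once. Low 1 held the highest value of 5 of the 9 genes, and high 2 held the lowest value of 7. Markers of other cell types differed between these libraries too. The summed level of the 14 measured trophoblast markers was 347 and 310.1 CPM in the control libraries, 513 and 334 CPM in the low-dose libraries, and 323 and 361 CPM in the high-dose libraries. Plet1, a gene of the trophoblast lineage, reached 43.6 CPM in low 1 and lay between 2.40 and 7.65 CPM in the other 5 libraries. Prl3d1, Plac1 and Ascl2 of the same list were also highest in low 1. Others of the list were lower in low 1 than in low 2. Cdx2, which is also among the streak and mesoderm markers, measured 13.3 and 34.2 CPM in these libraries. Hand1 measured 42.6 and 49.5 CPM, and Cited1 34.5 and 42.9 CPM. Eomes, which marks the streak as well as the trophoblast, measured 128 and 176 CPM in the control libraries, 233 and 137 CPM in the low-dose libraries, and 109.9 and 86.5 CPM in the high-dose libraries. It thus made up a large share of the gap in the sum between low 1 and low 2.

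The summed level of the 20 visceral endoderm markers was 3535 and 1876 CPM in the control libraries, 2842 and 3283 CPM in the low-dose libraries, and 2994 and 3779 CPM in the high-dose libraries. It was lowest in control 2 and low 1, in which Pou5f1 and Otx2 were highest, and highest in high 2, in which both were lowest. High 1 departed from this order. Its sum was next above that of low 1, but Pou5f1 (414.8 CPM) and Otx2 (75.6 CPM) were lower only in high 2. Apob and Cubn made up a large part of the sum, with 1021 and 588 CPM in control 1. The 20 streak and mesoderm markers summed to between 944 and 1046 CPM, but single members differed in both directions. For high against low, 8 were higher and 7 lower at an unadjusted p under 0.05 by limma, against 5.69% and 2.22% of all genes. By limma 0 were called (lowest adjusted p 0.0998). Aldh1a2, which makes retinoic acid, measured 35.3 and 25.8 CPM in the control libraries, 1.36 and 10.3 CPM in the low-dose libraries, and 59.7 and 69.5 CPM in the high-dose libraries. Lefty2, a Nodal antagonist, measured 89.2 and 87.2 CPM in the control libraries, 131 and 113 CPM in the low-dose libraries, and 64.1 and 54.9 CPM in the high-dose libraries. Mesp1, a factor of nascent mesoderm, measured 31.1 and 33.2 CPM in the control libraries, 58.8 and 50.7 CPM in the low-dose libraries, and 31.4 and 31.2 CPM in the high-dose libraries. The 7 measured of 11 decidual markers summed to 127 and 109.6 CPM in the control libraries, 113 and 138 CPM in the low-dose libraries, and 143 and 148 CPM in the high-dose libraries. Igfbp4 made up a large part of the decidual sum. It measured 89.95 and 74.57 CPM in the control libraries. In the low-dose libraries it measured 80.89 and 97.09 CPM, and in the high-dose libraries 100.7 and 103.5 CPM. The order of the 6 libraries was the same for Igfbp4 as for the sum, so the sum mostly describes this gene. Bmp2 lay between 17.3 and 21.4 CPM. The part of these marker lists in the differences above was not tested.

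Of 19 genes of the primed epiblast, 3 had a positive and 16 a negative fitted difference for high against low, with a median log2 difference of -0.21 (0.01 over all genes), and 0 passed the adjusted threshold by limma. At an unadjusted p under 0.05, 1 was higher and 6 were lower, against 5.69% and 2.22% of genes. For low against control 15 were positive and 4 negative, and for high against control 5 were positive and 14 negative. Zic2, a zinc finger factor of the epiblast and neural plate, measured 100.8 and 111 CPM in the control libraries, 139 and 112 CPM in the low-dose libraries, and 95.8 and 79.3 CPM in the high-dose libraries (high against low -0.51 log2, limma adjusted p 0.339). Etv5, a target of FGF signalling, measured 129 and 131 CPM in the control libraries, 174 and 127 CPM in the low-dose libraries, and 115 and 107 CPM in the high-dose libraries. Sox3, a close relative of Sox2, went the other way, with 23.6 and 19.9 CPM in the control libraries, 20.02 and 22.8 CPM in the low-dose libraries, and 29.3 and 26.1 CPM in the high-dose libraries (high against low 0.36 log2, limma adjusted p 0.431).

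Of 22 other measured genes of the pluripotency network, 9 had a positive and 13 a negative difference for high against low, with a median of -0.06 and 0 called by limma. At an unadjusted p under 0.05, 2 were higher and 5 lower, against 5.69% and 2.22% of all genes. Zscan10, a zinc finger gene of pluripotent cells, measured 106 and 110.5 CPM in the control libraries, 119 and 107 CPM in the low-dose libraries, and 96.7 and 84.8 CPM in the high-dose libraries (high against low -0.31 log2, limma adjusted p 0.367). Fgf4, the ligand by which epiblast cells signal to the trophoblast, measured 10.2 and 7.63 CPM in the control libraries, 15.6 and 11.8 CPM in the low-dose libraries, and 7.81 and 9.14 CPM in the high-dose libraries. Its high-dose and control libraries overlapped, and its fitted log2 difference was -0.62 for high against low (limma adjusted p 0.376) and 0.57 for low against control (limma adjusted p 0.928). Tdh, a threonine-catabolising enzyme of mouse pluripotent cells, measured 31.3 and 25.1 CPM in the control libraries, 34.1 and 37.9 CPM in the low-dose libraries, and 37.9 and 42.9 CPM in the high-dose libraries. Its log2 difference was 0.51 for high against control (unadjusted p 0.00274, limma adjusted p 0.866) and 0.16 for high against low. Mybl2, a cell cycle transcription factor, had 0.11 for high against low (limma adjusted p 0.825). Esrrb, an orphan nuclear receptor of the naive network, named after its values were seen, measured 1.06 and 1.07 CPM in the control libraries, 3.17 and 0.747 CPM in the low-dose libraries, and 7.02 and 5.77 CPM in the high-dose libraries.

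The anterior genes that work beside Otx2 had 4 positive and 10 negative differences of 14 for high against low, with a median of -0.24 and 0 called by limma. At an unadjusted p under 0.05, 3 were higher and 5 were lower, against 5.69% and 2.22% of all genes. The highest log2 difference of the list was 0.97. Lhx1, a LIM homeobox factor of the node and anterior mesendoderm, measured 89.9 and 136 CPM in the control libraries, 151 and 94.5 CPM in the low-dose libraries, and 76.0 and 62.4 CPM in the high-dose libraries (high against low -0.79 log2, limma adjusted p 0.440). Cer1, a secreted antagonist of Nodal, BMP and Wnt, measured 115 and 140.4 CPM in the control libraries, 127 and 102 CPM in the low-dose libraries, and 87.6 and 80.03 CPM in the high-dose libraries (high against low -0.44 log2, limma adjusted p 0.407). Both genes had low 1 above low 2, as Otx2 did. Sfrp1, a secreted Wnt antagonist, measured 96.6 and 103 CPM in the control libraries, 81.2 and 82.8 CPM in the low-dose libraries, and 95.9 and 86.5 CPM in the high-dose libraries (high against low 0.15 log2, limma adjusted p 0.686).

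The SoxB and neural plate list had 9 positive and 2 negative differences of 11 for high against low, a median of 0.36 and 0 called by limma. By limma, 7 were higher and 2 lower at an unadjusted p under 0.05, against 5.69% and 2.22% of all genes. For low against control the list had 3 positive and 8 negative, with a median of -0.22. Nes, an intermediate filament gene of neural progenitors, measured 61.1 and 61.6 CPM in the control libraries, 51.5 and 53.3 CPM in the low-dose libraries, and 67.8 and 67.6 CPM in the high-dose libraries (high against low 0.36 log2, limma adjusted p 0.233). Gbx2, a homeobox factor of the hindbrain side of the neural plate, measured 26.1 and 15.9 CPM in the control libraries, 6.43 and 15.1 CPM in the low-dose libraries, and 27.7 and 28.2 CPM in the high-dose libraries (high against low 1.40 log2, limma adjusted p 0.345). Both lower members were Zic genes, Zic2, which this list shares with that of the primed epiblast, and Zic5 (high against low -0.43 log2, limma adjusted p 0.522). Zic5 measured 56.1 and 71.4 CPM in the control libraries, 76.6 and 55.8 CPM in the low-dose libraries, and 48.2 and 48.4 CPM in the high-dose libraries. Sox2 itself had a fitted difference of 0.02.

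Of 13 measured genes around Lin28a and let-7, 8 had a positive and 5 a negative difference for high against low, with a median of 0.05 and 0 called by limma. An unadjusted p under 0.05 by limma was reached by 2 higher and 0 lower genes, against 5.69% and 2.22% of all genes. Igf2bp2, an RNA-binding protein whose mRNA is a let-7 target, measured 203 and 219.7 CPM in the high-dose libraries, against 179.6 and 189 CPM in the low-dose libraries (log2 difference 0.20, limma adjusted p 0.440). Lin28b, the paralog of Lin28a, measured 80.2 and 89.05 CPM in the high-dose libraries, against 92.6 and 89.1 CPM in the low-dose libraries, and was named after its values were seen. Lin28a and Lin28b thus did not share the order of libraries.

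Around Cdh1, the list of epithelial and mesenchymal genes had 14 positive and 9 negative differences of 23 for high against low, with a median of 0.03 and 0 called by limma. Among them, 7 were higher and 3 lower at an unadjusted p under 0.05 by limma, against 5.69% and 2.22% of all genes. Snai1, the repressor of Cdh1 at the streak, measured 33.4 and 30.5 CPM in the high-dose libraries, against 44.7 and 36.9 CPM in the low-dose libraries (log2 difference -0.34, limma adjusted p 0.440). Krt18, a keratin of simple epithelia, measured 181 and 201 CPM in the high-dose libraries, against 147 and 169 CPM in the low-dose libraries (log2 difference 0.27, limma adjusted p 0.454).

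The order of libraries was shared within a subset of the 9 genes. Over the 6 libraries on the log2(CPM + 1) scale, Pearson's r with Pou5f1 was 0.985 for Slc7a3, 0.976 for Utf1, 0.949 for L1td1 and 0.928 for Otx2, 0.809 for Nanog and 0.708 for Cdh1. It was -0.851 for Lin28a and -0.22 for Sox2. Among 8625 other genes with at least 10 CPM on average, those most like Pou5f1 were Pdzd4 (r 0.997), Isyna1 (0.997) and Tomm34 (0.995). Those most like Nanog were Tiam2 (0.996), Pitpnc1 (0.990) and Per1 (0.987), and those most like Sox2 were Inpp5f (0.997), Med1 (0.969) and Afap1 (0.966). All points share the same 6 libraries and 3 groups, and the named genes are the highest of 8625, so these values are descriptions.

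Methylation is given as percent methylation of 100 bp tiles, with no coverage, so the depth behind each value is unknown. Of the 72 tiles, 24 (33.3%) had a mean over the 9 libraries under 5%, against 27.4% of all tiles, and 4 (5.56%) had a mean over 80%, against 15.5% of all tiles. The median was 14.4% for the 72 tiles and 20.5% for all tiles.

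The genes differed in their pattern along the start region. Both tiles that overlap the CpG-rich Sox2 promoter shown above, at chr3:34649801-34649900 and chr3:34649901-34650000, were nearly unmethylated, with means of 0.420% and 0.0882%. Of the 11 Sox2 tiles 8 were under 5%, and of the 9 Utf1 tiles 7 were. The Utf1 tile at chr7:139943901-139944000, which overlaps the end of the Utf1 promoter shown, had a mean of 3.599%. In contrast, the 5 Pou5f1 tiles lay inside the gene, and their means ran between 16.3% and 47.7%, with the highest value in the tile nearest to the start, centred 118 bp after it. Cdh1 had 6 tiles under 5% and 3 over 80% among its 15, and Lin28a had 1 under 5% and 1 over 80% among its 9. The 15 Otx2 tiles had means between 13.6% and 49.3%, the 5 Slc7a3 tiles between 24.1% and 68.1% and the 3 L1td1 tiles between 3.17% and 13.02%.

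**Figure D4:**
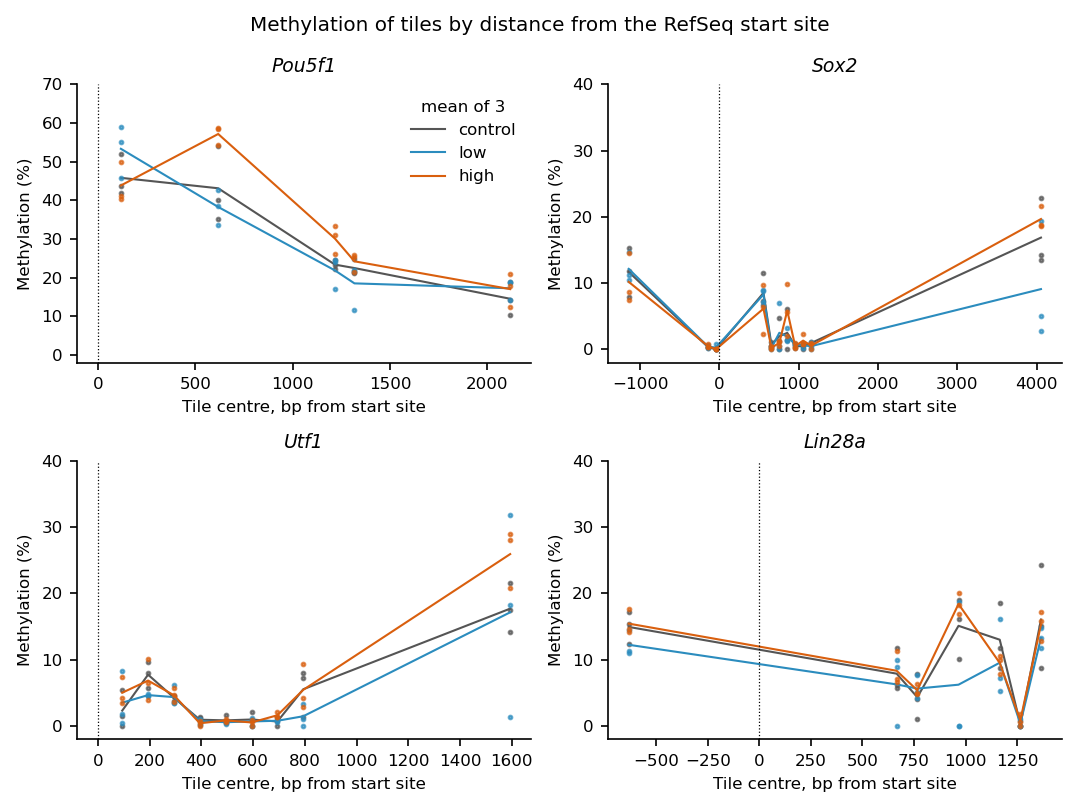
Percent methylation (y axes) of tiles of Pou5f1, Sox2, Utf1 and Lin28a against the distance of the tile centre from the RefSeq start site in bp (x axes, shown within 4500 bp, which leaves out 2 of the 9 Lin28a tiles). Points are libraries and lines join the means of 3 libraries per group. The Sox2 tiles around the start lie near 0, whereas Pou5f1 falls away from the start, and the high-dose group is highest in its tile centred at 618 bp.

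No tile of these genes was called at an adjusted p under 0.05 by limma in any comparison, where the background was 0% of tiles in each. At an unadjusted p under 0.05, 4 tiles were higher and 1 lower for high against control (background 4.44%), 3 were higher for high against low (4.71%) and 2 were higher for low against control (5.49%). Libraries did not overlap for 7 of 72 tiles for high against control (9.72%, against 9.23% of all tiles), of which 6 were higher (background 5.16%) and 1 lower (4.07%). For high against low there were 7 (9.72%, against 9.56%), of which 5 were higher (4.8%) and 2 lower (4.76%). For low against control there were 5 (6.94%, against 9.53%), of which 2 were higher (5.26%) and 3 lower (4.27%). These shares lay near the background.

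The tile with the smallest p in both high-dose comparisons lay in Pou5f1 at chr17:35506601-35506700, centred 618 bp after the start. Its methylation was 54.2%, 35.2% and 40% in the control libraries, 42.7%, 33.7% and 38.5% in the low-dose libraries, and 58.8%, 58.5% and 54.3% in the high-dose libraries. All 3 high-dose libraries lay above all others. High against low differed by 18.9 percentage points (SE 4.82, 95% interval 7.55 to 30.3), with an unadjusted p of 0.00552 and an adjusted p of 0.927 by limma. High against control differed by 14.1 points (SE 4.82, 95% interval 2.70 to 25.4, limma adjusted p 1).

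The next Pou5f1 tile, at chr17:35507201-35507300, had 33.3%, 30.9% and 26% in the high-dose libraries, against 17.04%, 23.9% and 24.6% in the low-dose libraries, a difference of 8.23 points (SE 2.52, limma adjusted p 0.9749). For low against control, the tile with the smallest p lay in Slc7a3 at chrX:101085601-101085700, with 31.8%, 22.9% and 33.3% in the low-dose libraries, against 17.9%, 21.3% and 14.5% in the control libraries. That is a difference of 11.4 points (SE 3.21, limma adjusted p 0.811). An Otx2 tile at chr14:48669401-48669500 differed by 12.2 points for low against control (limma adjusted p 0.901) with overlapping libraries, and 1 at chr14:48674101-48674200 by 3.15 points for high against control (limma adjusted p 1).

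Averaged over its 5 tiles, Pou5f1 had 31.1%, 27.3% and 31.1% in the control libraries, 31.9%, 27.8% and 29.9% in the low-dose libraries, and 34.3%, 34.6% and 34.5% in the high-dose libraries. The high-dose libraries were above all others and close to each other. The mean was 34.5 ± 0.129% with the high dose and 29.9 ± 2.19% in control (SD, n = 3 each), a difference of 4.61 points (two-sided exact permutation p = 0.1, adjusted p 0.48). High against low differed by 4.62 points (exact permutation p = 0.1, adjusted p 0.48). With 3 against 3 libraries this test cannot give a p under 0.1. The 5 tiles include both Pou5f1 tiles named above, so this mean is not separate from them. The remaining tiles, in order from the start, differed by -9.50, 5.71 and -0.22 points for high against low. For high against control these tiles differed by -1.99, 1.74 and 2.50 points. Pou5f1 had lower fitted RNA values with the high dose, but RNA and DNA libraries are not matched, and the relation of both was not tested.

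**Figure D5:**
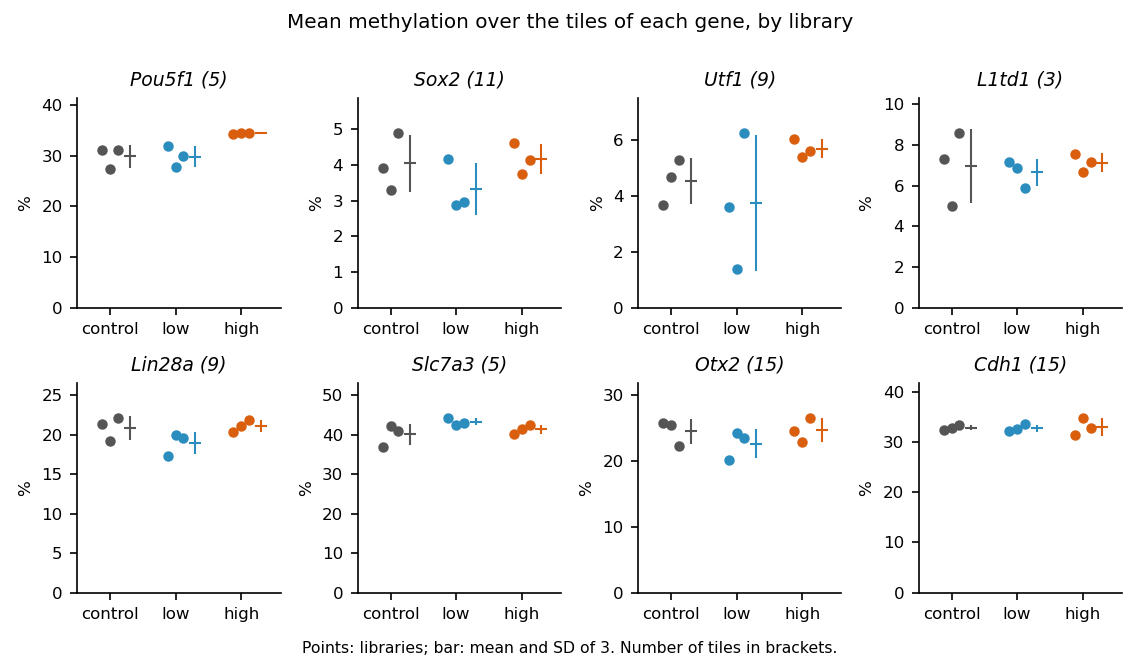
Mean percent methylation over the tiles of each gene (y axes, from 0, number of tiles in brackets) in the 9 RRBS libraries by dose (x axes). Points are libraries, and bars beside them are the mean and SD of 3. The 3 high-dose libraries of Pou5f1 lie between 34.3% and 34.6%, above all control and low-dose libraries, and Cdh1 libraries lie close together in all groups.

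Of 24 such tests over 8 genes and 3 comparisons, 5 reached p = 0.1 and none had an adjusted p under 0.05. Reaching it means that the libraries did not overlap, which held for 2 of 8 genes for high against control, 2 for high against low and 1 for low against control. Among 10568 genes with 3 or more tiles, it held for 9.07%, 9.62% and 9.92% in the same order of comparisons. Beside both of Pou5f1, these were Utf1 for high against control, with 5.68 ± 0.337% against 4.54 ± 0.825%, Lin28a for high against low, with 21.1 ± 0.775% against 18.9 ± 1.42%, and Slc7a3 for low against control, with 43.3 ± 0.934% against 40.1 ± 2.76% (SD, n = 3 each, exact permutation test). Left-out libraries moved these: Utf1 differed by 0.6995 points without control 1, Lin28a by 1.38 points without low 1 and Slc7a3 by 1.64 points without control 1. Cdh1 had means of 32.8% in control, 32.7% in low-dose and 32.99% in high-dose libraries. Sox2 had means of 4.05% in control, 3.34% in low-dose and 4.18% in high-dose libraries, Otx2 of 24.5%, 22.6% and 24.7%, and L1td1 of 6.97%, 6.65% and 7.14% in the same order.

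Over all 72 tiles, the library mean was 21.6 ± 0.478% with the high dose, against 20.9 ± 0.238% in control and 20.2 ± 0.579% with the low dose (SD, n = 3 each). Each high-dose library lay above each library of the other groups (two-sided exact permutation p = 0.1 for each comparison, the smallest this design allows). The margin was narrow, with 21.15% in high 1 and 21.14% in control 3. The 72 tiles include the 5 of Pou5f1, so this mean is not separate from the Pou5f1 result above. Over all 141251 tiles the library mean was 35.97 ± 0.0814% with the high dose, against 35.7 ± 0.411% in control and 35.98 ± 0.327% with the low dose (SD, n = 3 each, exact permutation p = 0.3 and 0.9).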

How the data were processed

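Expression values of 6 libraries were deposited by the authors as CPM, and values of 9 libraries as percent methylation of 100 bp tiles, per the file headers. Bismark, Bowtie2, methylKit, Trim Galore, edgeR, SAMtools, TopHat and Bowtie 0.12.2 stand without roles, per the submitters' processing notes, as do the builds mm8 and mm10. GRCm38 was taken as the build. Against RefSeq GRCm38.p6, both ends of Nanog were identical and those of Cdh1 within 1 bp, while an end of Otx2 differed by 6175 bp, of Slc7a3 by 4432 bp, of Sox2 by 410 bp and of Lin28a by 355 bp. RefSeq promoter windows held 15401 tiles with a mean of 7.63%, against 578 to 994 tiles with means of 33.7 to 37.4% in shifted windows.

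Log2(CPM + 1) values were tested with limma 3.58.1 in R 4.3.3 (trend on the mean), on a scale that understates changes of low genes. Genes with at least 1 CPM in 2 libraries were kept (12987 of 12988), with the 3 groups in 1 fit. Percent methylation of tiles was tested with limma, no trend. P-values were adjusted over all genes or tiles (Benjamini-Hochberg), and 0.05 was the threshold. Regional means were compared by exact permutation (SciPy 1.17.1) and adjusted over 24 tests. The 3 lines without a gene held 27.9 to 29.8% of CPM and were left out.

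The 9 genes and all lists were chosen with earlier results of these data known. All 9 genes are named. Of each list, the 2 genes with the smallest p per direction and at least 10 CPM qualify, and some of these are given. For tiles the 2 with the smallest p per comparison are named. On simulated data for high against control (12987 genes), 56% of log2 changes of 0.5 and 92% of changes of 1 were called. The simulation also held log2 changes of 2 and 3 and gave 175 calls, against 1 in the data. Many calls ease the adjusted threshold. Those shares need not hold for the 9 genes, several of which varied more than most genes. For tiles (141251), changes were placed only in tiles of intermediate methylation, and 4% of changes of 20 points were called. That share need not hold for the 72 tiles, whose median was 14.4%. The fit with the library number as a block, and other settings, are given at the end.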

Additional observations from a re-analysis of the deposited data

How the results depend on the processing

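Of the 9 genes, none was called for high against control or low against control under any setting, and 2 were called for high against low without low 2, where the count over single left-out libraries ran between 0 and 2. Over all genes, leaving out single libraries gave 0 to 65 calls for low against control (10 without control 2, 65 without low 2), 0 to 2 for high against control and 0 to 291 for high against low (291 without low 2, 9 without either control). High against control gave 0 calls without a trend and 2 with only the groups compared, and high against low gave 9 in that fit. For tiles, a trend gave 1, 2 and 2 calls for low against control, high against control and high against low, the logit scale 1 for low against control and 1 for high against low, and single left-out libraries 0 to 1 for low against control and 0 to 1 for high against control. The causes were not tested.

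With a replicate block made from the column numbers, high against control gave 0 calls for genes, and the other comparisons and the tiles gave 0 as well. Deviations of same-numbered libraries correlated between -0.073 and 0.090 for genes and between -0.033 and 0.029 for tiles. With 2 RNA libraries a group, different-numbered libraries necessarily gave the same values with the sign reversed. What the numbers stand for is unknown, so this check cannot settle whether they pair the libraries.

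Without single libraries, log2 differences for low against control ran between -0.0046 and 0.257 for Pou5f1, -0.302 and 0.0908 for Nanog, -0.118 and 0.0426 for Sox2, -0.0986 and 0.691 for Utf1, -0.199 and 0.408 for L1td1, -0.107 and 0.515 for Slc7a3, -0.194 and 0.218 for Otx2, and -0.156 and 0.00153 for Cdh1. For Sox2 they ran between -0.0989 and 0.0616 for high against control and between -0.0585 and 0.0965 for high against low, and for Cdh1 between -0.127 and 0.0301 for high against low.

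Regional methylation differences (percentage points) without single libraries ran, for low against control, between -1.28 and 1.03 for Pou5f1, -2.05 and 0.394 for Utf1, -1.31 and 0.4996 for L1td1 and -0.455 and 0.203 for Cdh1. For high against control they ran between -0.239 and 0.560 for Sox2, -0.828 and 0.984 for L1td1, -0.637 and 0.840 for Lin28a, -0.267 and 2.36 for Slc7a3, -0.903 and 1.06 for Otx2 and -0.716 and 0.999 for Cdh1, and for high against low between -0.647 and 1.07 for Cdh1. Tiles within 1 kb of the gene start reversed Pou5f1 for low against control (1.33) and Sox2 for high against control (-0.0538). The median over tiles reversed Pou5f1 (0.0656), Sox2 (0.0636) and Utf1 (0.317) for low against control, Otx2 for high against control (-0.602) and Sox2 for high against low (-0.0211). Subtracting the library mean over all tiles reversed Sox2 (-0.187), L1td1 (-0.150), Lin28a (-0.102), Otx2 (-0.132) and Cdh1 (-0.119) for high against control. The 5 differences whose libraries did not overlap kept their direction in all settings run. Leaving out single libraries cannot reverse such a difference, so only the other settings could have done so. Pou5f1 ran between 3.34 and 6.61 for high against control and between 3.58 and 6.55 for high against low. Utf1 ran between 0.253 and 2.19 for high against control, Lin28a between 1.38 and 4.88 for high against low and Slc7a3 between 1.64 and 4.34 for low against control.

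The planned count test was not run, because whole reads could not be recovered from the CPM. Neither depth nor coverage is known.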
